A study of Mus musculus with 12 samples.

Results

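The genes described here are 38 nuclear receptor genes other than the glucocorticoid receptor (GR) gene, out of 21887 protein-coding genes of the mouse build mm10. They form a list of gene names, drawn up with earlier results of these data known but with no measured value in its rule. GR binding was assigned to a gene when the centre of a GR peak lay inside the gene or within 50 kb of it. Binding was measured by chromatin immunoprecipitation followed by sequencing (ChIP-seq) in BWTG3 cells, a mouse hepatoma line, with 11 libraries and 1 input control. The series set out to examine how the inflammatory cytokine TNF alters binding of GR to DNA. All groups were BWTG3 cells kept for 24 h without serum in Optimem medium, and the treated groups were stimulated for 3 h in total. The titles of the group NI (3 libraries) name no agent, and it was taken as untreated. DEX (3 libraries) received 1 µM of the synthetic glucocorticoid dexamethasone (Dex), TNF (2 libraries) received 1000 U/ml of TNF, and TNFDEX (3 libraries) received TNF 1 h before Dex. The labels do not say whether the time with Dex was the same in DEX and TNFDEX. All libraries came from 1 transformed line, and the design text calls the replicates biological.

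Nuclear receptors are transcription factors, many of which are switched on by small lipid-soluble ligands such as steroids, retinoids, thyroid hormone, fatty acids, oxysterols and bile acids. In liver cells they control lipid, bile acid, glucose and drug metabolism, and several bind DNA as partners of the retinoid X receptors. GR is itself a nuclear receptor; bound by a glucocorticoid it enters the nucleus and binds glucocorticoid response elements, and genes of other receptors are among the genes near its binding sites. ChIP-seq gives the presence of GR on DNA and no RNA level, so neither the expression of these receptors nor the cell type could be checked from it.

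Depth lay between 39228805 and 51141996 tags per library, of which 0.106% to 2.91% fell in nuclear peaks. The number of nuclear peaks ranged from 2521 in NI replicate 3 to 22588 in TNFDEX replicate 1. Tags in mitochondrial peaks made up 0.00645% to 0.0348% of 6 libraries and 0.355% to 0.541% of the other 5 (NI 3, DEX 3, TNF 2, TNFDEX 2 and TNFDEX 3). The labels name no batch for this split. Peaks of the 11 lists that shared at least 1 bp were merged into 47479 regions, and 2 or more libraries of a group had to hold a peak for the region to count as called in that group, which for TNF means both. The value at a region is the normalized tag count, the authors' tags in the peak per 20000000 tags. Where no peak was called the level is not known, and it is not taken as 0.

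GR was near more of these receptor genes in cells given Dex. In DEX a GR region was called near 23 of the 38 genes (60.5%, against 36.5% of all protein-coding genes) and in NI near 6 (15.8% against 14.8%). The count was 25 in TNFDEX (65.8% against 39.4%) and 1 in TNF (2.63% against 6.08%). Of the 38, 18 had a region in DEX and none in NI (47.4% against 24.7%), and 1, the retinoid X receptor gene Rxrg, had the reverse (3.06% of all genes). A region in both NI and DEX was held by 5 genes, Ppard, Rarb, Nr3c2, Nr4a1 and Nr2e3. No test was made of the list against other genes. The receptor genes are long, with a median span of 46.8 kb against 17.2 kb for all genes, so their windows are wider. Per Mb of window the 38 genes held 5.46 DEX regions against 4.29 for all genes and 0.929 NI regions against 1.21. When only the 2521 strongest peaks of each library were kept, 5 receptor genes had a region in NI, 7 in DEX and 10 in TNFDEX (10.6%, 12.4% and 11.9% of all genes). With those peaks 4 had one in DEX and none in NI, for which no share of all genes is given. A window of 10 kb left 2 genes in NI and 15 in DEX (7.18% and 18.7% of all genes).

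The same count was made in each library on its own. Among NI libraries 1 to 3, 15, 15 and 8 receptor genes had a peak (39.5%, 39.5% and 21.1%, against 32.9%, 37.9% and 17% of all genes). TNF libraries 1 and 2 had 19 and 10 (50% and 26.3%, against 40.8% and 25.5%). DEX libraries 1 to 3 had 25, 25 and 24 (65.8%, 65.8% and 63.2%, against 43.2%, 51.2% and 43.6%). TNFDEX libraries 1 to 3 had 28, 20 and 27 (73.7%, 52.6% and 71.1%, against 60.6%, 36.1% and 47.5%). Every library with Dex was above every library without it, but the closest, TNFDEX 2 with 20 and TNF 1 with 19, differed by 1 gene. Over all genes the libraries did not separate in this way, since TNFDEX 2 (36.1%) was below NI 2 (37.9%) and TNF 1 (40.8%). Within the 6 libraries of low mitochondrial share the counts were 15, 15 and 19 without Dex and 25, 25 and 28 with it, and within the other 5 they were 8 and 10 without and 24, 20 and 27 with it. The part of the mitochondrial share in the lower counts of NI 3 and TNF 2 was not tested.

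**Figure D1:**
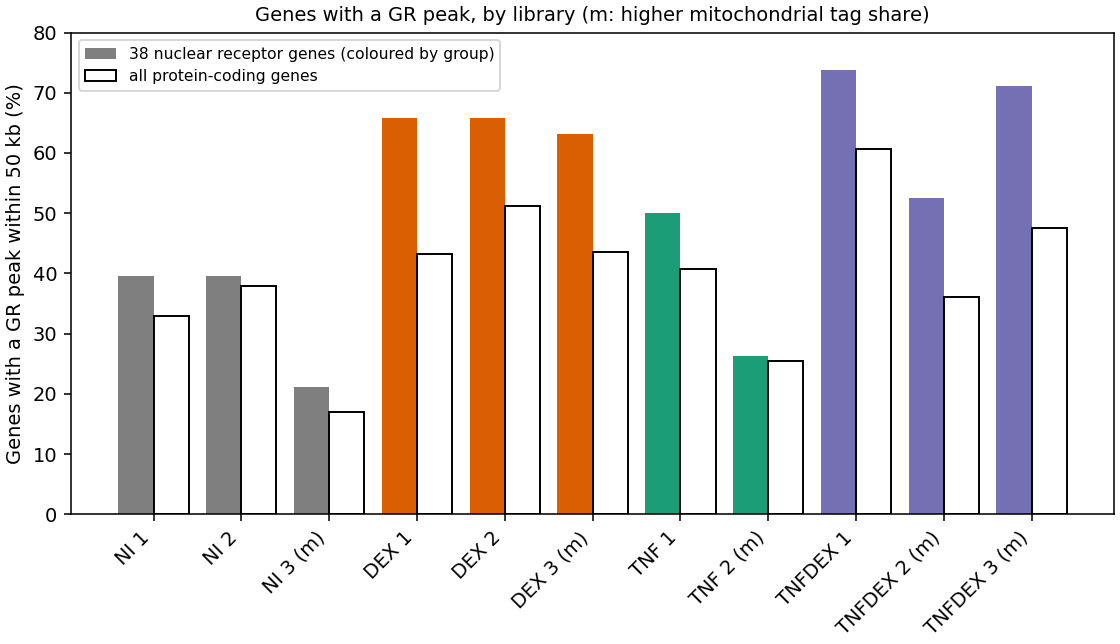
Share of genes (%) with at least 1 GR peak inside or within 50 kb, per library, for the 38 receptor genes (filled bars, coloured by group) and all protein-coding genes (open bars); (m) marks the 5 libraries with the higher mitochondrial share. The receptor genes ranged from 21.1% in NI 3 to 73.7% in TNFDEX 1, and every Dex library (52.6% or more) was above every library without Dex (50% or less), whereas the open bar of TNFDEX 2 (36.1%) is below those of NI 2 (37.9%) and TNF 1 (40.8%).

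In all, 185 regions near the 38 genes held a peak in some library, and 64 were called in at least 1 group. There were 47 in DEX, 49 in TNFDEX, 8 in NI and 1 in TNF, and 35 were called in both DEX and TNFDEX. These 64 regions lay near 28 of the genes (73.7%, against 47.9% of all genes). The 10 genes without a region in any group were Nr1h3, Hnf4g, Esr2 and Nr2e1, which had no peak in any library, and Rxrb, Esrra, Esrrb, Nr4a3, Nr2f1 and Nr5a1, whose peaks never met in 2 libraries of a group. The 27 genes with a DEX or TNFDEX region had a median span of 53.9 kb and the 11 others 21.9 kb. Rarb, which spans 651 kb, had the most regions, 5 in DEX and 8 in TNFDEX.

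**Figure D2:**
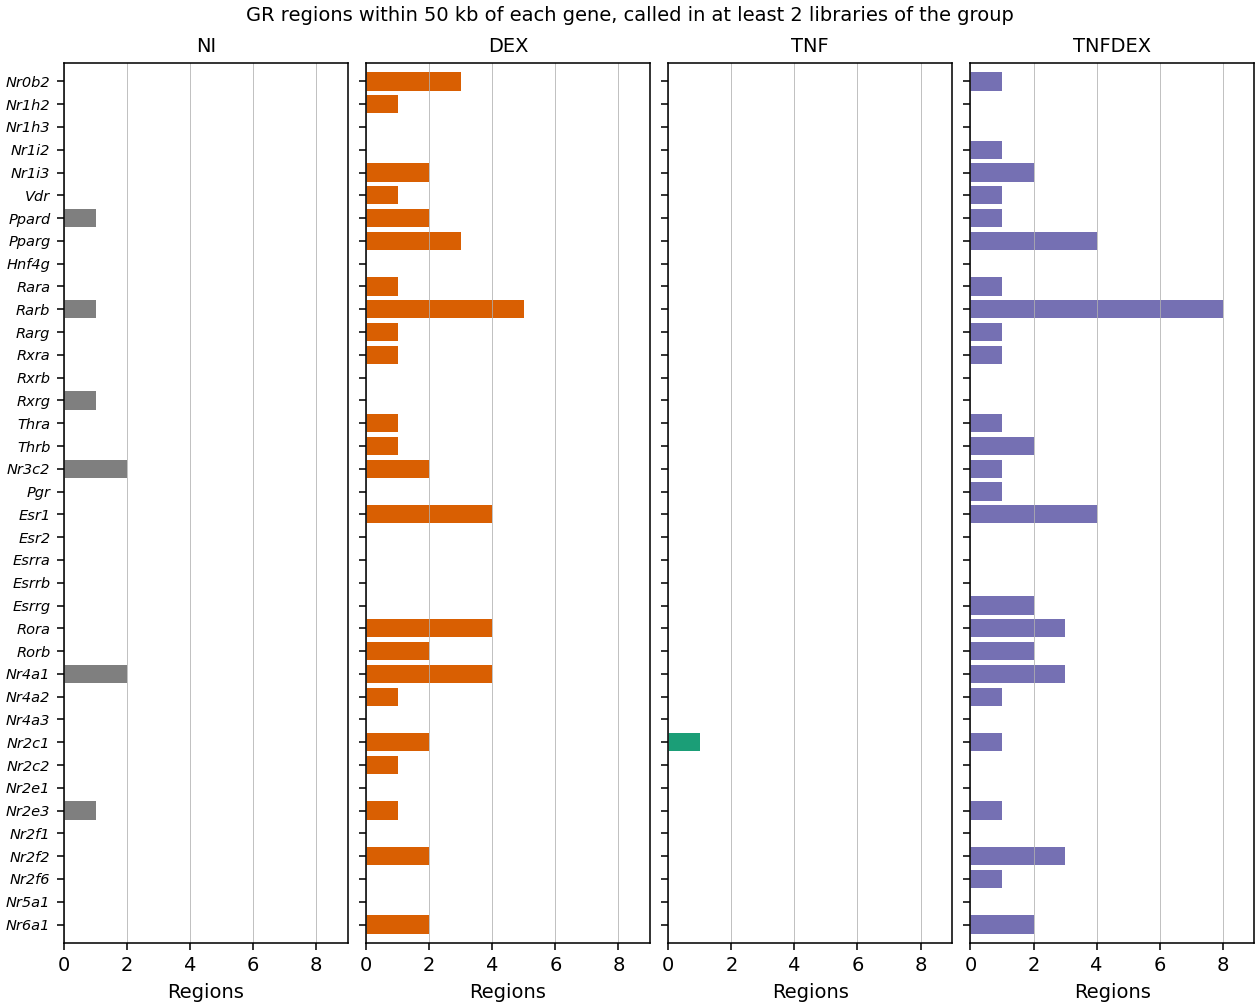
Number of GR regions inside or within 50 kb of each of the 38 receptor genes, called in at least 2 libraries of the group, with 1 panel per group and the genes ordered by role. Rarb had 8 regions in TNFDEX and Nr2c1 alone had a region in TNF.

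Among the fatty acid receptors, Pparg held the strongest region of all 38 genes, while Ppard ranked lower and Hnf4g had no peak. Pparg encodes the receptor that drives fat cell formation and lipid storage, and its strongest region lay inside the gene at chr6:115382891-115383075, 20.6 kb from the nearest annotated start. DEX libraries 1 to 3 held 66.9, 81.1 and 139.6 normalized tags there and TNFDEX libraries 1 to 3 held 140.6, 62.2 and 122.5 (95.9 ± 38.5 and 108 ± 41.0, SD, n = 3 each). No library without Dex had a peak, and the DEX and TNFDEX values overlapped. Its fold over the input was 14.4 to 27.2, by the authors' ratios, and 4.01% of all DEX regions had a higher DEX mean. A second Pparg region ended 527 bp before it, at chr6:115382148-115382363, with 28.8, 40.8 and 57.7 in DEX and 76.3, 24.2 and 48.1 in TNFDEX, again with no peak elsewhere. The weaker Pparg regions lay upstream of the gene, with means of at most 14.7. Ppard, a related receptor tied to fatty acid oxidation, had a region 20 kb upstream inside the neighbouring gene Def6 (chr17:28212610-28212848), with 28.8, 36.7 and 43.9 in DEX and 53.1, 21.5 and 46.5 in TNFDEX and no peak in NI or TNF. Hnf4g, the third receptor of this group, had none.

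Among receptors for xenobiotics, oxysterols, bile acids and vitamin D, 4 of 6 genes had a region in DEX and 4 in TNFDEX (36.5% and 39.4% of all genes), with none in NI or TNF (14.8% and 6.08%). Nr1i3 encodes CAR, which induces drug-metabolizing enzymes in liver. Its first region lay downstream of the gene, with 26.3, 26.5 and 29.3 in DEX and 36.5, 23.5 and 44.0 in TNFDEX. None of the 5 libraries without Dex held a peak, and the DEX values fell inside the TNFDEX range. A second Nr1i3 region, inside Adamts4 (chr1:171260476-171260697), held 20.8, 30.6 and 22.8 in DEX, 47.3, 16.4 and 23.0 in TNFDEX, and 18.2 in TNF replicate 1. Vdr, the vitamin D receptor gene, had a region 30.4 kb upstream (chr15:97938643-97938828) with 15.4 and 22.4 in DEX 1 and DEX 3, no peak in DEX 2, and 31.5, 44.2 and 66.2 in TNFDEX. All 3 TNFDEX values at Vdr were above both DEX values; the region could not enter the signal test because DEX 2 had no value. Nr0b2 encodes SHP, a repressor of bile acid synthesis that lacks a DNA-binding domain. It had a region 6.79 kb downstream (chr4:133563378-133563565) with 34.2 and 34.0 in DEX 2 and DEX 3 and 39.4, 17.2 and 34.5 in TNFDEX. Nr1h2, an oxysterol receptor gene, had its region 0.206 kb inside its start, with 8.4 and 11.2 in DEX 1 and DEX 2 and 12.1 in TNFDEX 2. Nr1i2, which encodes the xenobiotic receptor PXR, had a weak intragenic region with 7.9 and 8.2 in TNFDEX 1 and TNFDEX 3. Nr1h3, the other oxysterol receptor gene, had no peak.

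Of the 8 retinoid and thyroid hormone receptor genes, 6 had a region in DEX, 6 in TNFDEX and 2 in NI (36.5%, 39.4% and 14.8% of all genes). Rarb, a retinoic acid receptor gene, had its strongest region inside the gene at chr14:16587977-16588229, with 14.4 and 19.8 in NI 1 and NI 2, 21.8, 36.2 and 73.2 in DEX, 27.9 in TNF 1 and 59.7, 29.3 and 79.4 in TNFDEX. Here every DEX value was above both NI values, the DEX and TNFDEX ranges overlapped, and NI 3 and TNF 2 had no peak. Rarg, another retinoic acid receptor gene, had a region 35.9 kb downstream inside Csad (chr15:102198912-102199113), with 20.8 and 62.9 in DEX 1 and DEX 3 and 43.5, 30.5 and 63.7 in TNFDEX. Rara, the remaining retinoic acid receptor gene, held 18.8, 18.4 and 13.4 in DEX and 22.0 and 14.4 in TNFDEX 1 and TNFDEX 3 at a region inside the gene. Thra and Thrb encode the thyroid hormone receptors. The intragenic Thra region held 15.9, 18.4 and 20.7 in DEX and 27.4 and 16.9 in TNFDEX 1 and TNFDEX 3, and that of Thrb nearest its start held 8.9, 8.2 and 12.9 in DEX, 9.1 in TNF 1 and 14.9, 11.3 and 21.0 in TNFDEX. Rxra, the common dimer partner of many receptors in liver, held 9.4, 21.4 and 27.1 in DEX and 24.1 and 19.7 in TNFDEX 1 and TNFDEX 3. Neither Rara, Thra nor Rxra had a peak in NI or TNF at these regions. Rxrg was the exception, with 7.2 and 7.3 in NI 2 and NI 3 at chr1:167560390-167560610 and no peak in any other library; these values were near the lowest of any peak (5.4 to 6.6 across libraries).

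Of the steroid hormone receptors, Esr1 had the strongest region. Esr1 encodes estrogen receptor alpha, and its region at chr10:4624845-4625068 lay inside the gene, 13 kb from the nearest start. It held 41.1, 46.9 and 104.7 in DEX and 102.0, 55.5 and 97.9 in TNFDEX (64.2 ± 35.2 and 85.1 ± 25.7, SD, n = 3 each). No library without Dex had a peak, and the Dex groups overlapped. Nr3c2 encodes the mineralocorticoid receptor, which shares ligands and DNA elements with GR. Its intragenic region at chr8:76912822-76913038 held 12.9 and 14 in NI 1 and NI 2, 17.4, 20.4 and 16.4 in DEX, 29.9 in TNF 1, and 41.5 and 17.7 in TNFDEX 1 and TNFDEX 3. All 3 DEX values were above both NI values, and the TNF value was above the DEX values. Pgr, the progesterone receptor gene, had a region in TNFDEX with 22.8 and 9.5 in libraries 1 and 3 and single peaks of 8.7 in DEX 2 and 8.1 in TNF 1. Esr2, for estrogen receptor beta, had no peak.

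The estrogen-related and ROR receptors are orphan receptors that act on energy metabolism and on the circadian clock. Only Esrrg of the 3 estrogen-related receptor genes had a region in any group, with 2 in TNFDEX. The first, 24.3 kb upstream of the gene, held 10.0, 9.0 and 16.9 in TNFDEX and 28.0 in DEX 3. The second, 6.51 kb downstream, held 11.2 and 7.4 in TNFDEX 1 and TNFDEX 3 and 9.9 in DEX 3. Rora had 4 regions in DEX and 3 in TNFDEX, all inside its 735 kb span and none above 23.6 in any library. Rorb had a region inside the neighbouring gene Trpm6 (chr19:18890607-18890843) with 33.6 in DEX 3 and 31.5, 12.9 and 27.1 in TNFDEX. A neighbouring Rorb region ended 26 bp before it and held 14.4 and 13.3 in DEX 1 and DEX 2 and 12.7 in TNF 1, so the calls of this stretch fell on either side in different libraries.

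The Nr4a receptors are ligand-independent products of immediate early genes. Nr4a2 had a region 28.4 kb downstream (chr2:57078296-57078543), with 15.9, 25.0 and 83.6 in DEX and 52.7, 30.5 and 57.6 in TNFDEX, no peak in NI or TNF, and DEX 3 far above the other DEX libraries. Nr4a1 and Nr3c2 had the most NI regions of the 38 genes, 2 each. The Nr4a1 region at chr15:101319723-101319954, 45 kb downstream, held 28.2 and 37.2 in NI 1 and NI 2, 21.3 and 42.8 in DEX 1 and DEX 2, 56.3 in TNF 1 and 50.2 in TNFDEX 1. These are the 6 libraries of low mitochondrial share, the NI and DEX ranges overlapped, and the other 5 libraries had no peak. Further downstream 2 regions lay 17 bp apart. The first (chr15:101320623-101320854) held 34.7 and 28.4 in DEX 1 and DEX 3 and 57.6 and 34.5 in TNFDEX 1 and TNFDEX 3, and the second (chr15:101320872-101321042) held 17.3 and 47.4 in NI 1 and NI 2, 34.2 in DEX 2 and 52.7 in TNF 1. No library was called at both, so read as 1 stretch they were called in 2 NI, 3 DEX, 1 TNF and 2 TNFDEX libraries.

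Nr4a1 also had a region centred 0.188 kb upstream of 1 of its own starts (chr15:101266535-101266781). It held 32.6 and 36.2 in DEX 2 and DEX 3 and 40.7 in TNFDEX 3, with a fold over the input of 5.24 to 5.96. It was 1 of 3 regions within 1 kb of a start of the receptor gene itself, with those of Nr1h2 and Nr3c2. The Nr3c2 region (chr8:76901906-76902107) held 6.9 and 7.7 in NI 1 and NI 2 and 11.2 in TNF 1, and no peak with Dex. The only region near the 38 genes called in all 3 NI libraries lay at the start of Rpl10a, a ribosomal protein gene in the window of Ppard (chr17:28328538-28328762), with 20.3, 27.1 and 17.9 in NI, 18.8 and 21.9 in DEX 1 and DEX 2, 16.7 in TNF 1 and no peak in TNFDEX. NI and DEX values overlapped there. The sequences of these promoters are shown because they overlap called regions at or near gene starts described here. The overlap was 186 bases for Nr4a1, 28 for Nr3c2 and 27 for Rpl10a, of regions 247, 202 and 225 bp wide. The peaks were in 3 of 6 Dex libraries and 0 of 5 others at Nr4a1 and in 0 of 6 and 3 of 5 at Nr3c2, and neither passed the presence test (Fisher's exact test, Benjamini-Hochberg adjusted p = 0.381 and 0.193). They are the 250 bases before the start, 5′ to 3′ on the plus strand (RefSeq, GRCm38.p6, the coordinates of mm10), at chr15:101266596-101266845, chr8:76902080-76902329 and chr17:28328315-28328564, and capitals mark bases inside the merged GR region.
Nr4a1: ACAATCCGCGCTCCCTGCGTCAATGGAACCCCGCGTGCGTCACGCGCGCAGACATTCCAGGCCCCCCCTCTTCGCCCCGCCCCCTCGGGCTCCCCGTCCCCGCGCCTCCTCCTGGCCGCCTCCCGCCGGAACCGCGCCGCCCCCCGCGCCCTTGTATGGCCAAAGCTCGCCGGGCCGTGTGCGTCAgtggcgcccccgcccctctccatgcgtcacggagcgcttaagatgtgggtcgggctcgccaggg
Nr3c2: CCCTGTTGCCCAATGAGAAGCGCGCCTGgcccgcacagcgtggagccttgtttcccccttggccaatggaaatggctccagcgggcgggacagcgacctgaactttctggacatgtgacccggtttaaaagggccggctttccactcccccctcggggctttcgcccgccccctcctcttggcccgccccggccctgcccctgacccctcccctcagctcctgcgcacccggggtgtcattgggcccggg
Rpl10a: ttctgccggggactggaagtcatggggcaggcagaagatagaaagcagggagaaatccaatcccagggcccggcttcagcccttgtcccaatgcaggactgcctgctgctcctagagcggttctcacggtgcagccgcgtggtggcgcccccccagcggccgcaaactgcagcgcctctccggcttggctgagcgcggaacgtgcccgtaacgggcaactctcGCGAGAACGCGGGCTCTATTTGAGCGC

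Motifs were searched on both strands in these windows. The core of the glucocorticoid response element (ACANNNTGT, in 5.82% of 32536 promoter windows of the same length), its single hexamer (AGAACA, 16%), the AP-1 site (TGANTCA, 6.73%), the nuclear receptor hexamer (AGGTCA, 14%) and the cyclic AMP response element (TGACGTCA, 1.56%) did not occur in any of the 3. The shorter CGTCA, which is part of TGACGTCA and was searched after the letters had been seen, occurred 4 times in the Nr4a1 window, at -233, -213, -69 and -40 from the start. It was found in 17.9% of windows, and 0.138% of windows held it as often. The Nr4a1 window was 74.4% G and C, that of Nr3c2 68.4% and that of Rpl10a 64.8%, against a median of 52.4%. A match or its absence describes these letters and not the binding. Bases of the 3 regions outside the windows were not searched. Promoter windows were found for 35 of the 38 genes; Nr5a1, Thra and Hnf4g had none. The sequences of regions away from gene starts were not analysed here.

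Other orphan receptors held 2 of the 5 strongest regions. Nr2c1, a repressor also called TR2, had a region 38.1 kb downstream (chr10:94235165-94235416), with the start of the predicted gene Gm32749 2.16 kb away. It held 15.9 in NI 2, 56.0, 72.9 and 80.1 in DEX, 29.4 and 7.3 in TNF, and 98.7, 25.8 and 64.1 in TNFDEX. This was the only region called in TNF; all DEX values were above the NI and TNF values, and TNFDEX 2 lay below TNF 1. Nr2f2, a regulator of vascular and metabolic genes also called COUP-TFII, had a region 46 kb downstream (chr7:70305876-70306080) with 32.2, 30.1 and 33.6 in DEX, 9.1 in TNF 1 and 72.2, 45.8 and 78.5 in TNFDEX. All 3 TNFDEX values there were above all 3 DEX values. A neighbour 226 bp before it (chr7:70305459-70305649) held 35.3, 25.4 and 44.0 in TNFDEX and had no peak in any other library. Nr2e3, a photoreceptor regulator, had a region at chr9:59975139-59975360 with 17.8 and 24.6 in NI 1 and NI 2, 20.8, 25.0 and 11.6 in DEX, 33 in TNF 1, and 37.3 and 14.8 in TNFDEX 1 and TNFDEX 3, so that the groups overlapped. Nr6a1, known from germ cells, had 2 weaker regions inside the gene. The second held 11.4, 9.2 and 10.8 in DEX and 23.2, 10.2 and 14.8 in TNFDEX, with no peak without Dex. Nr2c2, a relative of Nr2c1, and Nr2f6, a relative of Nr2f2, each had 1 region, in DEX and in TNFDEX respectively, with no value above 16.9 in those groups. The Nr2c2 region also held 14.4 in NI 1 and 21.3 in TNF 1, the TNF value being above both DEX values. The Nr2f6 region also held 12.5 in DEX 3.

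**Figure D3:**
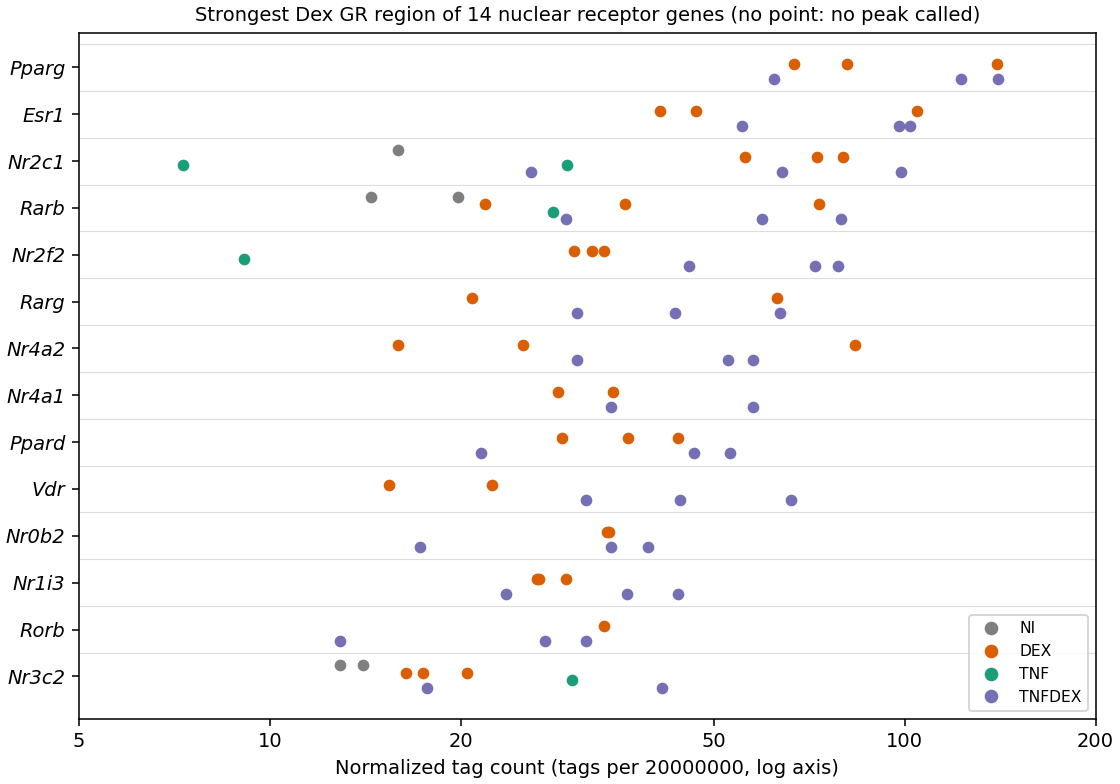
Normalized tag count (tags per 20000000, log axis) in each library at the strongest Dex region of the 14 receptor genes with the highest mean over Dex libraries; a point is 1 library, coloured by group, and a library without a peak has no point. Pparg and Esr1 have points in Dex libraries alone, and at Nr2f2 the TNFDEX points (45.8 to 78.5) lie above the DEX points (30.1 to 33.6).

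Most regions lay far from the start of the receptor gene. Of the 64 regions, 33 lay inside the receptor gene, 10 upstream and 21 downstream. Of the 31 outside, 11 lay over another protein-coding gene and 20 over none, so the receptor gene is not the nearest gene in every case. The median distance from the nearest own start was 37.9 kb, and 26 of the 63 regions with a known start lay over 50 kb away. The gene table gave no exons, so exons and introns were not told apart.

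**Figure D4:**
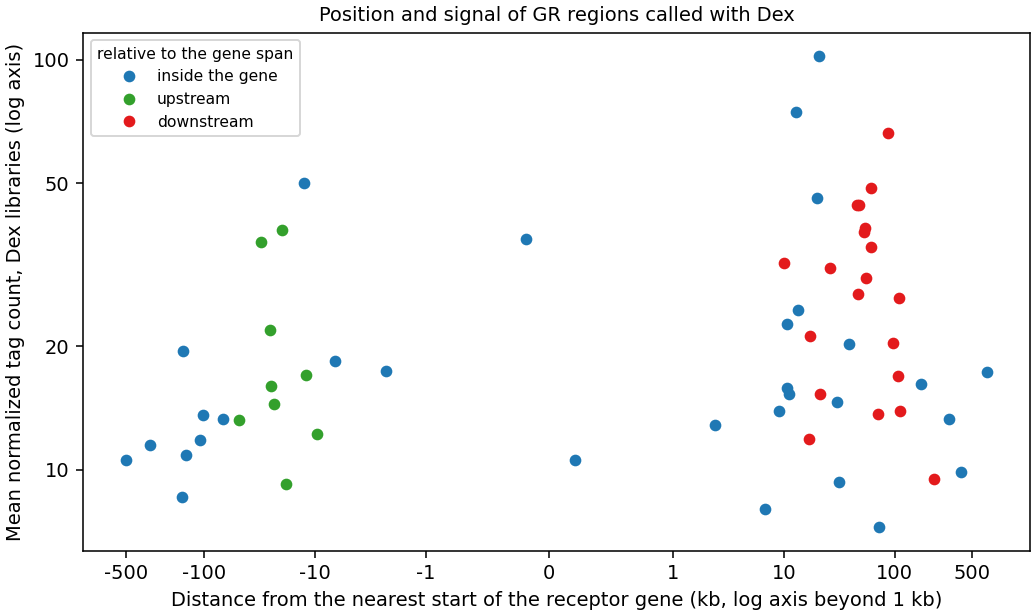
Mean normalized tag count over Dex libraries (log axis) against distance from the nearest start of the receptor gene (kb, negative upstream, log axis beyond 1 kb) for 60 regions called in DEX or TNFDEX; a point is 1 region, coloured by position relative to the gene. The strongest point, Pparg, lies inside its gene, 20.6 kb from the start, and 2 points lie within 1 kb of a start, Nr4a1 and Nr1h2.

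The presence of a peak was tested for Dex against no Dex over both TNF backgrounds, with 6 libraries against 5. By Fisher's exact test (two-sided, Benjamini-Hochberg over 19224 regions), 12.5% of all regions were called more often with Dex. Of the 64 receptor regions 7 were (10.9%), and 0 were called less often (0% of all regions), nor was any at an unadjusted p under 0.05. With the 2521 strongest peaks of each library 4 passed (912 over all regions). The 7 were both strong Pparg regions, the strongest regions of Esr1, Nr4a2, Ppard and Nr1i3, and the second Nr6a1 region. Each was called in 6 of 6 Dex libraries and 0 of 5 others (Fisher's exact test p = 0.00216, adjusted p = 0.0173). Leaving out any 1 of the 6 Dex libraries ended all 7 calls, and every call over all regions, with Fisher's exact test adjusted p of 0.0508 to 0.0581 for these regions. They still had a peak in all 5 Dex libraries left and in 0 of 5 others. Even this widest split of 5 against 5 did not pass, so no region could, and the loss does not grade the calls. Another 14 regions with 5 of 6 against 0 of 5 did not pass (Fisher's exact test p = 0.0152, adjusted p = 0.071). Without TNF replicate 1, 11 receptor regions passed, the strongest Nr2f2 region among them (Fisher's exact test adjusted p = 0.0301). Over all regions 2827 passed without that library, against 2403 with it. At an unadjusted p under 0.05 there were 25 receptor regions (39.1%, against 21.3% of all). Of the receptor regions in at least 2 DEX or NI libraries, 19 of 50 were in all 3 DEX and no NI library (38%, against 35.2% of all). In these comparisons the receptor regions had to be called in at least 1 group, as were 13801 of all regions. The shares of all regions needed only a peak in any 2 of the libraries compared, so the sets are not alike. Over a like set the shares of 12.5%, 21.3% and 35.2% would be higher.

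Most receptor regions called with Dex alone were also called when TNF was given before Dex. Of the 47 DEX regions 74.5% were also called in TNFDEX, and of the 49 TNFDEX regions 71.4% were called in DEX (80.1% and 65.3% for all regions). A region in TNFDEX and none in DEX was held by 4 genes, Nr1i2, Pgr, Esrrg and Nr2f6 (10.5%, against 8.6% of all genes), and 2, Nr1h2 and Nr2c2, had the reverse (5.26% against 5.69%). Nr1h2 and Nr2c2 each had a peak in 2 TNFDEX libraries, but in no shared region. Without TNFDEX 1 or without TNFDEX 3 the first count was 1, without DEX 3 it was 7, and the number of receptor genes with a TNFDEX region was 16 without either of TNFDEX 1 and TNFDEX 3. No shares of all genes are given for these counts with a library left out, so they are not set against all genes. The Nr2f2 neighbour was the only receptor region in all 3 TNFDEX and no DEX library (1.42% of all regions), and 0 were in all 3 DEX and no TNFDEX library (0.134% of all).

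Signal could be compared at 13 receptor regions that had a value in all 6 libraries. By limma on log2 normalized tag counts over 4022 regions, 0.0497% of all regions were higher in TNFDEX than in DEX and 0% lower. None of the 13 passed, 1 had an unadjusted p under 0.05, and 8 were above 0. Their median log2 difference was 0.14, against -0.02 for all regions. The largest was that of the Nr2f2 region, 0.85 (SE 0.26, 95% interval 0.26 to 1.43, limma adjusted p = 0.491), with all 3 TNFDEX libraries above all 3 DEX libraries. Over the alternatives its adjusted p ran from 0.0774, with the mitochondrial split as a term, to 1. At the strongest Pparg region the difference was 0.01 (95% interval -0.43 to 0.46) and at that of Esr1 0.33 (-0.24 to 0.90). Nr2c1 was the most negative at -0.49 (-1.02 to 0.05). Thrb had 0.48 (-0.18 to 1.14) and Nr6a1 0.39 (-0.25 to 1.04), so that intervals of this width include differences in either direction.

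**Figure D5:**
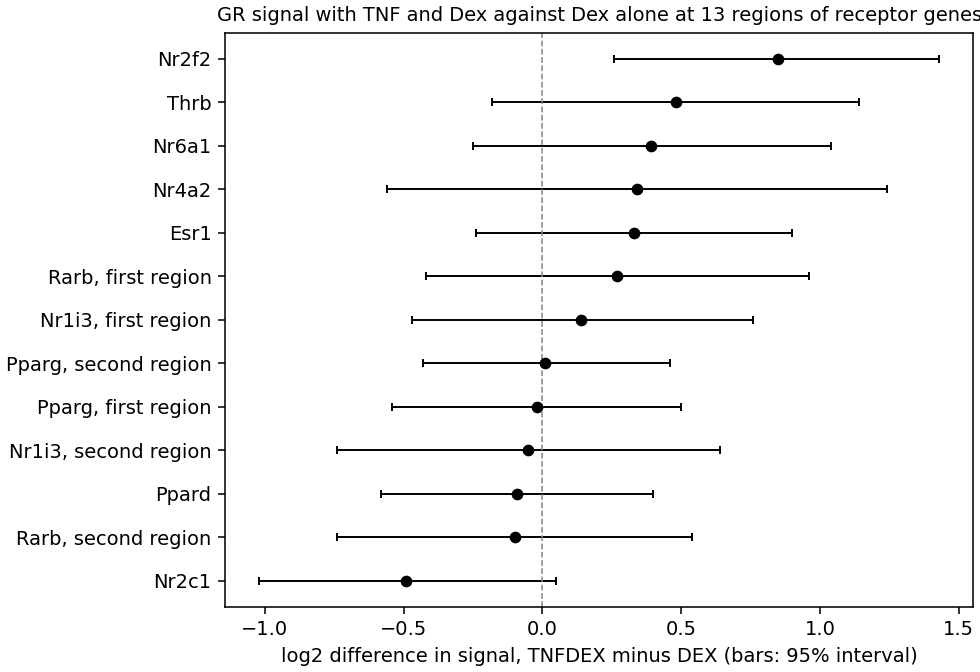
log2 difference in normalized tag count, TNFDEX minus DEX, with its 95% interval from limma, at the 13 receptor regions called in all 6 libraries of these groups; a point is 1 region and the dashed line is no difference. The Nr2f2 interval (0.26 to 1.43) alone lies clear of 0, with no adjustment for the number of regions.

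The other contrasts reached few of these genes. Nr2c1 was the 1 receptor region tested between TNFDEX and TNF, where 11.8% of 507 regions were higher and 0.986% lower. It rose in TNFDEX, with 62.9 ± 36.5 (n = 3) against 18.3 ± 15.6 (n = 2) and a log2 difference of 1.24 (SE 0.33, limma adjusted p = 0.0178), although TNFDEX 2 was below TNF 1. This call was lost with scaling by library totals alone (limma adjusted p = 0.641) and without TNFDEX 1 (0.0501), TNFDEX 3 (0.131) or TNF 2 (log2 0.37, 0.468). No receptor region had a value in every library of NI and DEX, of NI and TNF, or of all 11 libraries, so the Dex effect on signal against NI, the effect of TNF alone and the dependence of the Dex effect on TNF were not tested for these genes. DEX against NI and TNFDEX against NI share the NI libraries, and the DEX libraries are shared by the contrasts with NI and TNFDEX.

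The calls without Dex depended on the libraries. The 6 genes with an NI region had NI means of 32.7 ± 6.36 at Nr4a1, 21.8 ± 4.77 at Ppard, 21.2 ± 4.81 at Nr2e3, 17.1 ± 3.82 at Rarb, 13.4 ± 0.778 at Nr3c2 and 7.25 ± 0.0707 at Rxrg (SD over the libraries with a peak, 3 for Ppard and 2 for the others). At the same regions the DEX means were 32.0 at Nr4a1, 20.4 at Ppard, 19.1 at Nr2e3, 43.7 at Rarb and 18.1 at Nr3c2, and Rxrg had no peak in DEX; these differences were not tested. Without NI 1 there were 2 such genes and without NI 2 there was 1, with no shares of all genes given for these counts. Of the 8 NI regions, 3 were called only in libraries of low mitochondrial share, both of Nr4a1 among them. Of all 64 receptor regions, 7 were called only in these 6 libraries (10.9%, against 8.17% of all regions) and 1 only in the other 5 (1.56% against 2.52%). The part of the mitochondrial share in these calls was not tested.

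Genes that work with these receptors were counted from lists in the same way, to be read against 36.5% of all genes in DEX, 39.4% in TNFDEX, 14.8% in NI and 6.08% in TNF. Of 11 other nuclear receptor genes, 9 had a region in DEX, 7 in TNFDEX, 1 in NI and 2 in TNF. The strongest were those of Hnf4a, a master regulator of hepatocytes, with a DEX mean of 302 ± 150, and of Ppara, the main fatty acid receptor of liver, with 85.8 ± 38.8 (SD, n = 3 each). Of 16 coregulators, 11 had a region in DEX, 10 in TNFDEX, 4 in NI and 5 in TNF. Of 20 genes that make or break down receptor ligands, the same counts were 10, 12, 3 and 4, such as Rdh10, of retinoic acid synthesis (77.3 ± 9.45), and Cyp24a1, which breaks down vitamin D (56.1 ± 9.84). Among 20 classical target genes of these receptors they were 17, 17, 5 and 1, with Klf9, a target of thyroid hormone and of glucocorticoids, at 247 ± 19 and Lpcat3, a target of the oxysterol receptors, at 101 ± 10.4. A region was called in DEX near 7 of 8 hepatocyte, 5 of 6 macrophage and 3 of 6 stromal and endothelial marker genes (36.5% of all genes), with the strongest region of the hepatocyte markers Krt8 and Krt18 being 1 shared region, so GR regions were found near marker genes of all 3 kinds.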

How the data were processed

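GR ChIP-seq peak lists of 11 libraries were used; the input sample was known only through the authors' ratios. The tools named in the submitters' processing notes are HOMER 4.6, Bowtie 1.0.0 and CASAVA 1.8, with mm10; settings of the alignment, filters on reads and the treatment of duplicates are not given in the sources used. Peaks came from HOMER findPeaks (factor style, 1 library at a time against 1 input), per the file headers, with a false discovery rate of 0.001, a Poisson p of 0.0001, and 4-fold enrichment over the input and over 10000 bp around the peak. The deposited signal is the normalized tag count, scaled by the authors to 20000000 tags. The deposited ratio is the authors' fold of a peak over the input.

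Here peaks sharing at least 1 bp were merged, and mitochondrial peaks were left out. Gene spans came from RefSeq (GRCm38.p6), in which all 38 genes were found. Presence was tested by Fisher's exact test over libraries, on regions in at least 2 libraries. Signal was tested with limma 3.58.1 (R 4.3.3, trend) on log2 normalized tag counts with no pseudocount, only where every library of both groups had a peak, since tag counts of separately called peaks are not counts of a common feature. Libraries were scaled by a trimmed mean of log ratios (30% of ratios and 5% of levels trimmed at each end). Benjamini-Hochberg adjustment ran over all regions tested, with a threshold of 0.05. Scripts ran in Python 3.11.15 with scipy 1.17.1, pandas 2.3.3, numpy 2.4.6 and matplotlib 3.10.9. Simulated signal had noise of 1 common spread, the median over regions, with no outlying library and no mitochondrial split. Recovery at regions of wider spread was not simulated. On such data for TNFDEX against DEX (4022 regions, 200 changed) the fit recovered 71% of 2-fold and 100% of 4-fold changes. For TNFDEX against TNF (507 regions) it recovered 70.3% and 100%. The presence test recovered 56.6% of 5000 changed regions. These were simulated with a peak in nearly every Dex library and in almost no other, so the share follows from that setting.

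Values of every library were given for the strongest Dex region of the 14 genes with the highest mean, for regions past a signal test and for genes with an NI region; other regions were named after their values were seen. The members and the gene lists were chosen with earlier results of these data known. The low and high mitochondrial libraries were split at the largest gap in that share, not by a label. Replicate numbers came from the sample titles. Same-numbered deviations from the group means correlated at 0.39, 0.45 and 0.56 for DEX and NI, where the numbers were taken to pair the libraries, and at 0.37, -0.36 and 0.57 for TNFDEX and DEX, where they were not. Pairs of unlike number ran from -0.52 to 0.35 for DEX and NI and from -0.58 to 0.55 for TNFDEX and DEX. Library 3 alone was of high mitochondrial share in both DEX and NI, and the part of that share was not tested. The main fits held no replicate term. Tags are not molecules counted by identifiers, and weak peaks carry a large counting error. Alternatives covered the gene window, the number of libraries and of peaks, the fold over the input, merging by centres within 100 bp, the scaling, a pseudocount, a minimum level, the mitochondrial split, the replicate block and leaving out each library.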

Additional observations from a re-analysis of the deposited data

How the results depend on the processing

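No called result changed direction under any alternative run. Of the receptor genes, 2 in NI, 15 in DEX and 0 in TNF had a region in a 10 kb window (7.18%, 18.7% and 2.81% of all genes). A call in every library left 1 in NI and 16 in TNFDEX (1.62% and 24.1%). An equal number of peaks left 7 in DEX and 10 in TNFDEX (12.4% and 11.9%). It also left 4 in DEX without NI, for which no share of all genes is given. Presence tests called 912 regions more often with Dex with an equal number of peaks (2403 otherwise; 4 receptor regions in place of 7), and 12 less often; merging by centres gave 2 less often, against 0 (8 at an unadjusted Fisher's exact p under 0.05). For limma signal counts over all regions, DEX against NI had 23 higher and 5 lower, with 0 lower by library totals, 38 and 29 with the mitochondrial term. TNFDEX against DEX had 2 and 0, with 0 higher by totals and 59 and 2 with the mitochondrial term. TNFDEX against TNF had 60 and 5, with 2 and 0 by totals (0 receptor regions), 14 lower at a mean of at least 20, and 102 and 72 with the mitochondrial term. TNFDEX against NI had 26 and 5, with 5 and 0 by totals, 13 lower at a mean of at least 20 and 25 lower with the mitochondrial term. The replicate block gave 39 higher and 26 lower for DEX against NI, 34 and 2 for TNFDEX against DEX, 12 lower for TNFDEX against TNF and 20 lower for TNFDEX against NI; it changed no call of a receptor region, and Nr2f2 had a limma adjusted p of 0.161 under the block. TNFDEX and DEX libraries did not all correlate best with their own number. Leaving out 1 library gave 1 to 5 receptor genes in NI, 19 to 20 in DEX and 16 to 25 in TNFDEX. It gave 14 to 22 in DEX without NI and 1 to 7 in TNFDEX without DEX. No shares of all genes are given for these counts. In the presence test, leaving out 1 library gave 0 to 2827 regions called more often with Dex, 0 to 5 less often and 0 to 11 receptor regions. The 0 called more often came from leaving out a Dex library, where no region could pass. Signal calls were 12 to 119 higher and 0 to 30 lower for DEX against NI, 0 to 22 and 0 to 10 for TNFDEX against DEX, and 0 to 3 lower for TNF against NI. They were 34 to 299 and 0 to 241 for TNFDEX against TNF (0 to 1 receptor region), and 10 to 143 and 0 to 121 for TNFDEX against NI. Single receptor regions, 1 each, were called for TNF against NI without TNF 2 and for TNFDEX against NI without NI 3. Where 1 library was left in a group, it was assumed to vary like the other group. The causes were not tested, except that fewer libraries allow more regions to be tested. Leaving out a TNF library left no count of TNF regions by 2 libraries. Depth limits the weakest regions, with lowest normalized tag counts of 5.4 to 6.6 per library, so a missing call is not evidence of no binding.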
